A study of Homo sapiens with 9 samples.

Results

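The genes described here build, cap, dock and split centrioles and dismantle the primary cilium. They were chosen by name from a table of 21417 gene symbols. The choice took the 26 symbols made of CEP and a number, with CEP290 left out, and 18 genes named singly, from the docking kinase gene TTBK2 to the cilium disassembly genes NEDD9, NDE1 and PIFO. These 44 members were measured in 9 libraries of H9, a human embryonic stem cell line. Undifferentiated cells (hESC) were grown on Matrigel in mTeSR1 and taken at day 0. Neuroectoderm, the precursor of the nervous system, was taken at day 5 after NOGGIN at 200 nM, a BMP antagonist, with SB431542 at 10 µM, an inhibitor of activin and Nodal receptors. Mesendoderm, the precursor of mesoderm and endoderm, was taken at day 5 after BMP4 at 5 ng/ml in mTeSR1. The series title joins primary cilia, autophagy and NRF2 to the cell cycle and to neuroectoderm fate. Each group had 3 libraries. No source used here says that they came from separate cultures, so the p-values measure the spread between these libraries, which may be technical. All cells share 1 line, and in bulk RNA a lower share of cells expressing a gene and less RNA per cell cannot be told apart.

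A centriole is a short barrel of microtubules, and a pair of them forms the core of the centrosome. New centrioles are started by the kinase PLK4 and a cartwheel that holds STIL and SASS6, and are capped by CCP110 and CEP97. When a cell leaves the cycle, the older (mother) centriole docks at the membrane through its distal appendages, TTBK2 helps to remove the cap, and the barrel extends into a primary cilium. Before division the cilium is taken down again, a step that involves the kinase Aurora A with its activators NEDD9 and PIFO, and NEK2 with the kinesin KIF24. Neural progenitors carry such a cilium and use it to receive hedgehog signals.

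Values are RPKM, reads scaled to transcript length and library size, for the most abundant transcript of each gene. A change is the difference of log2(RPKM + 1) ± SE between group means, a scale that understates changes of low genes. Adjusted p-values are those of limma with Benjamini-Hochberg adjustment over the 14473 genes that averaged 0.5 RPKM or more, and a gene is said to rise or fall where the adjusted p is under 0.05. All 44 members passed that minimum. Their means over 9 libraries ran from 1.14 RPKM (CEP19) to 19.5 RPKM (PCM1) with a median of 6.40, against 6.86 for all tested genes. The 3 values given for a group are replicates 1, 2 and 3 in that order. A lost call is given with the alternative setting or the library left out and the adjusted p found there, out of 20 alternatives.

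The libraries held denominators of 40.3 to 73.3 M reads by the steps between their low values, so that 3 reads on a transcript of 1 kb equal 0.0409 to 0.0745 RPKM, counting error only. Marker genes followed the labels in part. The summed RPKM of 8 pluripotency markers was 955 to 1016 in hESC, 377 to 392 in neuroectoderm and 435 to 514 in mesendoderm. LIN28A held most of the neuroectoderm sum, with an average of 275 RPKM there and 307 RPKM in hESC. L1TD1 averaged 128, 0.97 and 59.6 RPKM in hESC, neuroectoderm and mesendoderm, and TDGF1 56.3, 0.06 and 23.7 RPKM. ZFP42 averaged 83.7, 19.3 and 82.6 RPKM in that order, so it hardly differed between hESC and mesendoderm. The 8 neuroectoderm markers summed to 231 to 281 RPKM in neuroectoderm and to at most 44.0 elsewhere. OTX2 held most of the neuroectoderm and hESC sums, with averages of 176 and 36.7 RPKM. LHX2 and SIX3 averaged only 0.123 and 0.0833 RPKM in neuroectoderm. HESX1 went the other way, from 3.13 RPKM in hESC to 0.717 RPKM in neuroectoderm. The 8 primitive streak markers summed to 105 to 158 RPKM in mesendoderm, and 8 markers of amnion, trophoblast and lateral mesoderm to 130 to 224 RPKM in the same libraries. The 4 neural crest markers summed to 50.7 to 86.8 RPKM in neuroectoderm, mostly PAX3. Their sums were 4.83 to 7.63 RPKM in hESC and 1.49 to 2.63 RPKM in mesendoderm. FOXD3 and SOX10 went the other way, at 5.32 and 1.17 RPKM in hESC against 0.857 and 0.917 RPKM in neuroectoderm. TFAP2B averaged 1.75 RPKM in neuroectoderm, against 0.0167 RPKM in hESC. The 6 neuron markers summed to 31.9 to 55.8 RPKM in hESC, 13.0 to 26.4 in neuroectoderm and 20.3 to 26.0 in mesendoderm. TUBB3 alone averaged 35.6, 11.5 and 16.7 RPKM in that order, and RBFOX3 and SYT1 were also highest in hESC. DCX, STMN2 and ELAVL4 were highest in neuroectoderm, at 1.49, 3.07 and 0.413 RPKM, against 1.19, 1.64 and 0.127 RPKM in hESC. The 8 markers of multiciliated cells, which make many centrioles, summed to 1.62 to 1.95, 2.86 to 6.55 and 0.48 to 0.94 RPKM in hESC, neuroectoderm and mesendoderm, with MCIDAS and GMNC averaging under 0.1 RPKM in every group. Of that list, FOXJ1 averaged 1.12, 3.24 and 0.303 RPKM and TPPP3 0.18, 1.37 and 0.137 RPKM in the same order, highest in neuroectoderm. The part of these cell types in the changes below was not tested.

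Over all genes, libraries of a group differed by base composition, and 3 of them went against the other 6 (see the plot of deviation by GC content). Each deviation was taken from the mean of the same 3 libraries, so deviations of a group must oppose each other. The split is therefore partly built in. The correlations over genes were weakest in mesendoderm, at -0.29, 0.20 and 0.19 in replicates 1, 2 and 3. In hESC replicate 2 the deviation of a gene from its group mean had a Spearman correlation with GC content of -0.62 over 13874 genes and -0.70 over the 41 members with a GC value. The corresponding values were -0.56 and -0.68 in neuroectoderm replicate 1, and -0.29 and -0.03 in mesendoderm replicate 1. In the other 6 libraries the correlation over genes lay between 0.19 and 0.59, and that over members between -0.16 (mesendoderm replicate 3) and 0.74 (neuroectoderm replicate 2). Genes are not independent replicates, and the correlations describe these libraries only. Of the 44 members, 26 had their highest hESC value in replicate 2, 22 their highest neuroectoderm value in replicate 1 and 30 their highest mesendoderm value in replicate 1. The same counts over all tested genes are not given here, so these have no background. The largest of them was in mesendoderm replicate 1, where the members' correlation with GC content was -0.03. The counts over all members and over the lists of other genes are given with and without these 3 libraries.

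**Figure D1:**
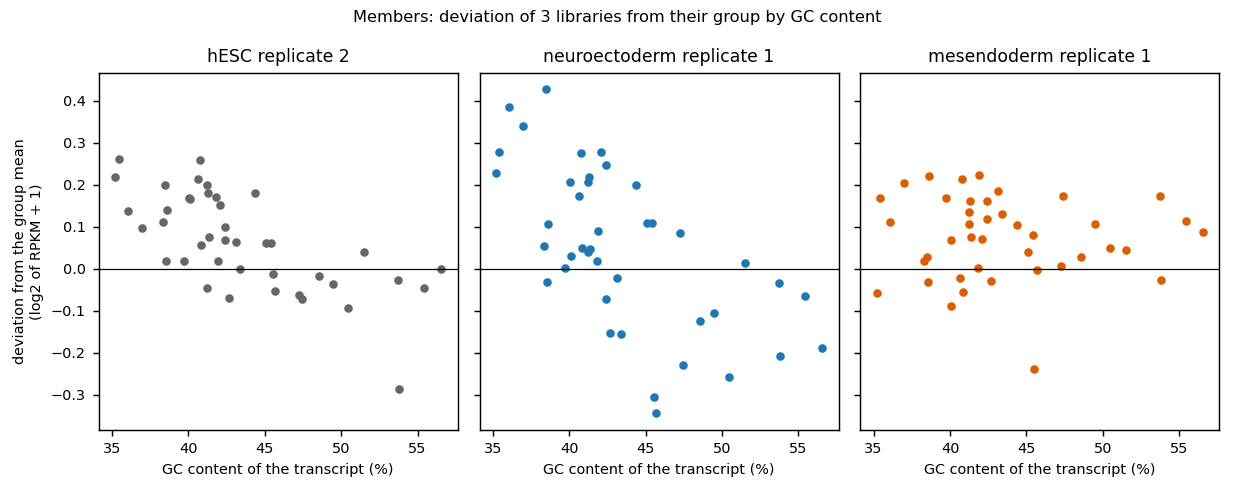
Deviation of each member from its group mean, in log2(RPKM + 1), against the GC content of its transcript in percent, for the 3 libraries that stood apart. Each point is 1 of 41 members. Points slope downward in hESC replicate 2 and neuroectoderm replicate 1 (Spearman correlation -0.70 and -0.68) and have little slope in mesendoderm replicate 1 (-0.03).

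Members passed the test in 1 direction, upward, in neuroectoderm and in both directions in mesendoderm, and more than 1 in 2 members were not called in each of these comparisons. Against hESC, 18 of 44 members rose in neuroectoderm (40.9%, against 21.9% of all genes tested) and 0 fell (background 22.3%). At an unadjusted p under 0.05 in the same limma fit, 1 member, PLK4, was lower. The median change of the members was 0.20, against -0.02 over all genes. In mesendoderm 5 members rose (11.4%, background 17.0%) and 9 fell (20.5%, background 18.1%), with a median change of -0.14 against -0.02. In the direct comparison, 23 members were higher in neuroectoderm than in mesendoderm (52.3%, background 24.0%) and 4 lower (9.09%, background 24.1%), with a median difference of 0.40 against -0.01. Neuroectoderm held the highest of the 3 group means for 33 members (75.0%, against 37.5% of tested genes), mesendoderm for 8 and hESC for 3.

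The counts of rises in neuroectoderm and of falls in mesendoderm moved with the processing. The share of all genes called under each alternative is not given here, so these counts have no background of their own. Without the 3 libraries that stood apart, 21 members rose and 0 fell in neuroectoderm, 6 rose and 11 fell in mesendoderm, and 29 were higher and 4 lower in neuroectoderm than in mesendoderm. With small RNA genes left out and the rest rescaled, which moved the median of all genes to -0.12 in both comparisons with hESC, 10 members rose in neuroectoderm. The members' medians were then 0.10 and -0.26. The 9 falls in mesendoderm became 5 without hESC replicate 2, without mesendoderm replicate 2 or without mesendoderm replicate 3. Of the 18 rises in neuroectoderm, 10 held in every alternative that tested them: those of CEP112, CEP164, CEP19, CEP41, CEP97, FBF1, KIF24, NDE1, NEDD9 and TTBK2. CEP19 was tested in 19 of the 20, since a minimum mean of 2 RPKM leaves it out.

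**Figure D2:**
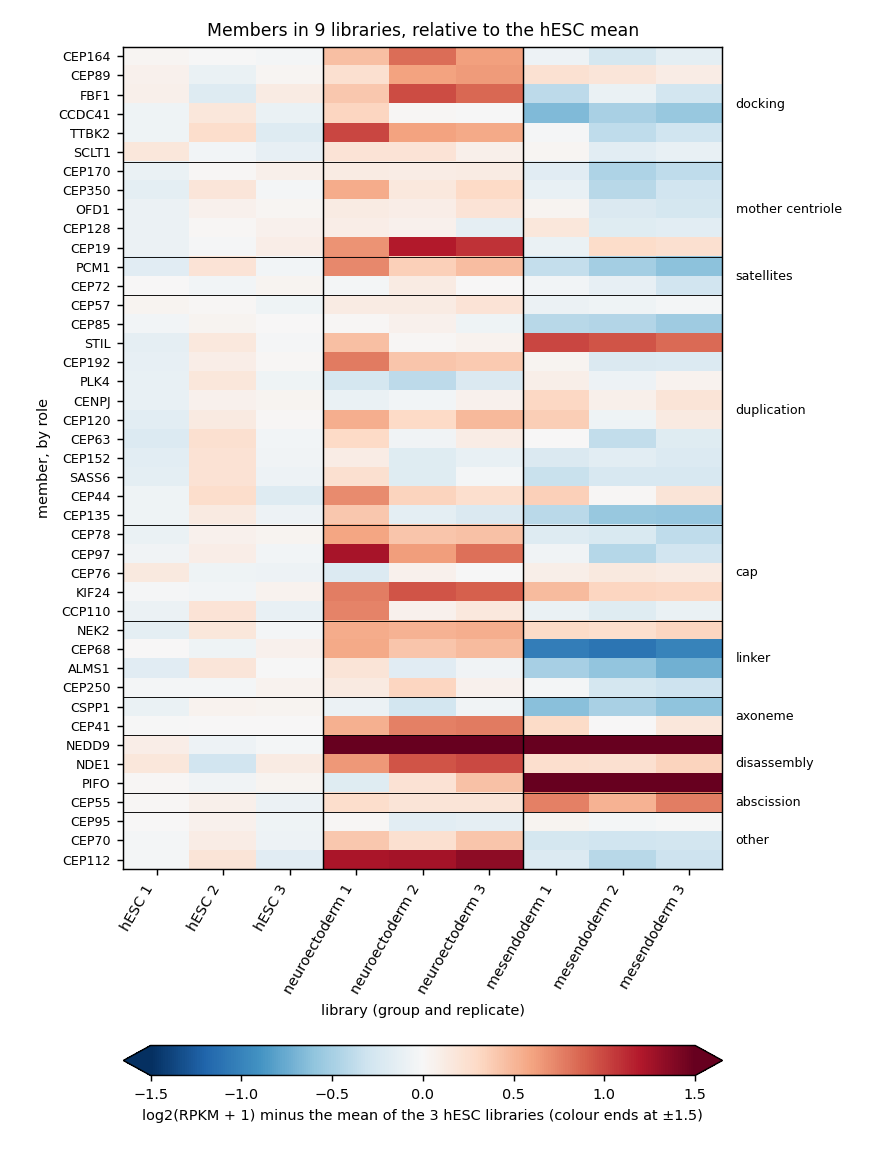
Heat map of 43 members (rows, by role) in 9 libraries (columns), coloured by log2(RPKM + 1) minus the mean of the 3 hESC libraries, with colours ending at ±1.5. NEDD9 is high in all 6 day 5 libraries, PIFO and STIL in the 3 of mesendoderm, and CEP68 is low in mesendoderm.

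**Figure D3:**
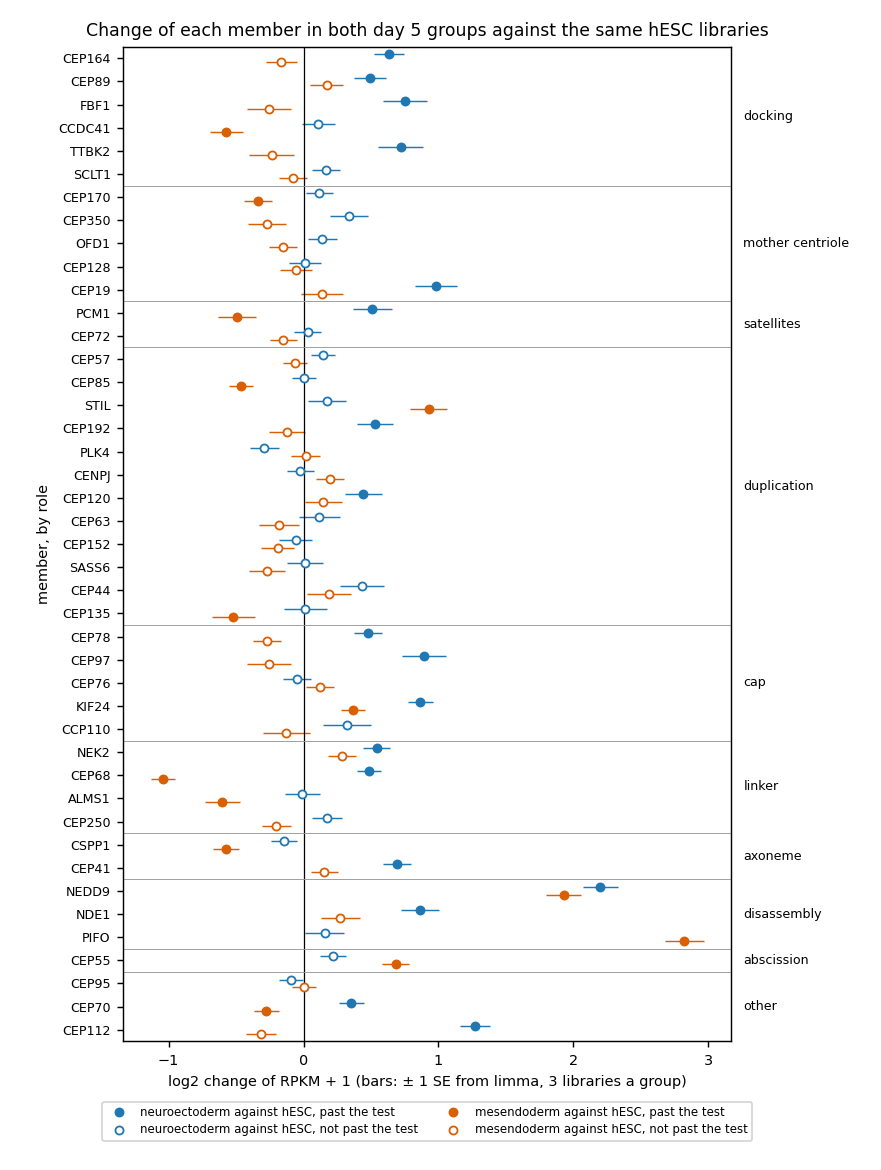
Change of each of 43 members in log2(RPKM + 1) in neuroectoderm (blue) and mesendoderm (orange) against the same 3 hESC libraries, by role, with bars of ± 1 SE. Filled points passed the test: 18 to the right and 0 to the left in neuroectoderm, 5 to the right and 9 to the left in mesendoderm.

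Promoters of 5 members with contrasting patterns are shown as the 250 bases before the RefSeq transcript start (GRCh38.p14). CEP97, CEP164 and CEP41 rose in neuroectoderm, and STIL and CEP55 rose in mesendoderm. Capitals mark letters shared with motifs known from cell cycle and ciliary promoters: CCAAT, the box bound by NF-Y, in all of them; GTTGCC or its reverse complement, the core of an X-box arm bound by RFX factors, in CEP41; TTTGCCGC, an E2F site, in STIL; and TTTGAA, the cell cycle homology region, read from the other strand as TTCAAA in CEP55. The windows lie at chr3:101724364-101724613 (CEP97, plus strand), chr11:117327604-117327853 (CEP164, plus), chr7:130441017-130441266 (CEP41, minus), chr1:47314148-47314397 (STIL, minus) and chr10:93496362-93496611 (CEP55, plus).
CEP97: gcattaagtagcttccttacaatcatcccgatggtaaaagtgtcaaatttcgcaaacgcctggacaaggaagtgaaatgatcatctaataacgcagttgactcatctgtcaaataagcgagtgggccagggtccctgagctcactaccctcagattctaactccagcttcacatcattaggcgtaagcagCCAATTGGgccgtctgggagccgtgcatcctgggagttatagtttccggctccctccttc
CEP164: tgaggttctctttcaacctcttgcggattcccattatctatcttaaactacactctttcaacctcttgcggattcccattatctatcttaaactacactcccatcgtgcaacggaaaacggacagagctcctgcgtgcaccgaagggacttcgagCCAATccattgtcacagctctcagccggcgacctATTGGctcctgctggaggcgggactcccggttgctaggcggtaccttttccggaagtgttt
CEP41: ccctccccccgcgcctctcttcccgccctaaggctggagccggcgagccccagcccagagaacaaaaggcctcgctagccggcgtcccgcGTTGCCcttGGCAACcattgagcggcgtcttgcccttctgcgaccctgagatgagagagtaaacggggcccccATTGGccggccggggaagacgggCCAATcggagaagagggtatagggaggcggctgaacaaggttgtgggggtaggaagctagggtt
STIL: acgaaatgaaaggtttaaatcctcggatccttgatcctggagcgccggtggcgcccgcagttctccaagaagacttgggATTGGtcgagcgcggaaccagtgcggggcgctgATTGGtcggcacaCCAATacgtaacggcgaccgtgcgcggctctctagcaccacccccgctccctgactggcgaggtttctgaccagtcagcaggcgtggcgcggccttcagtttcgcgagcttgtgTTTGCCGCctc
CEP55: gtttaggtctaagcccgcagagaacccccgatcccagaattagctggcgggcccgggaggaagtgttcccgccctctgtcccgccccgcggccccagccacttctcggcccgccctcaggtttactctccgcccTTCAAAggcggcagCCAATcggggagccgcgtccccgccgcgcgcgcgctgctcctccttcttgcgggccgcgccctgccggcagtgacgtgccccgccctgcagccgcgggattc
In CEP97 the capitals are a single stretch in which CCAAT and its reverse complement ATTGG overlap, from 60 bases before the start. CEP41 holds GTTGCC and its reverse complement GGCAAC, at 160 and 151 bases before the start, and CCAAT boxes at 87 and 64. STIL has CCAAT boxes at 171, 138 and 125 bases before the start, with the E2F letters at 11. CEP55 has the TTCAAA letters at 116 and a CCAAT box at 102.

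Over all members, RefSeq held 51 promoters of 37 genes, and several genes had overlapping promoters. Only the 250 bases before each start were searched, on both strands. CCAAT was found in 23 of the 51 (45.1%), against 32.0% of 35116 human promoters searched in the same way, whether or not the gene was expressed here. GTTGCC or GTTACC was found in 15 (29.4%, against 14.9%). An E2F spelling, TTTGGCGC, TTTCCCGC, TTTCGCGC or TTTGCCGC, was found in 5 (9.80%, against 2.79%), and TTTGAA in 8 (15.7%, against 13.3%). Of the 16 members with a promoter that rose in neuroectoderm, 12 held CCAAT in at least 1 promoter, as did 9 of the 21 that did not. The X-box letters occurred in 5 of those 16 and in 8 of those 21. Between the day 5 groups, CCAAT was found in 11 of 19 members with a promoter that were higher in neuroectoderm. It was found in 3 of 3 that were lower there and in 7 of 15 not called. In mesendoderm against hESC, CCAAT was found in 4 of 4 that rose, 4 of 7 that fell and 13 of 26 not called. These matches describe letters in a window and show no binding. CENPJ, CEP250, CEP78, CSPP1, PCM1 and PIFO were among the members with no entry under their symbol.

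The distal appendages are the blades that anchor the mother centriole to the membrane. Of 6 genes in this role, 4 rose in neuroectoderm (66.7%, background 21.9%) and 0 fell (background 22.3%). The rises were those of CEP164, FBF1, CEP89 and TTBK2. In mesendoderm 1 fell, CCDC41 (16.7%, near the background of 18.1%), and 4 of the 6 were lower there than in neuroectoderm (66.7%, background 24.0%). With so few members in a role, such shares are a description, here and below. CEP164 read 5.93, 5.79 and 5.67 RPKM in hESC, 8.26, 11.2 and 9.39 RPKM in neuroectoderm and 5.45, 4.65 and 5.13 RPKM in mesendoderm. CEP164 recruits TTBK2 to the appendages. Every neuroectoderm value lay above every other value, with a change of 0.63 ± 0.11 (adjusted p = 0.00193), whereas the change in mesendoderm was -0.16 ± 0.11 (adjusted p = 0.306). FBF1 read 4.98, 3.95 and 5.20 RPKM in hESC, 6.54, 10.2 and 9.35 RPKM in neuroectoderm and 3.33, 4.29 and 3.71 RPKM in mesendoderm. FBF1, an appendage protein that helps to gate entry into the cilium, changed by 0.75 ± 0.16 (adjusted p = 0.00547) in neuroectoderm and by -0.26 ± 0.16 (adjusted p = 0.265) in mesendoderm. The mesendoderm values overlapped those of hESC, and FBF1 differed between the day 5 groups by 1.01 ± 0.16 (adjusted p = 9.45e-04). The mesendoderm change of FBF1 passed the test only without the 3 libraries that stood apart (adjusted p = 0.0439).

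TTBK2, the kinase that starts ciliogenesis by driving CCP110 off the mother centriole, read 2.26, 3.08 and 1.98 RPKM in hESC, 5.81, 4.17 and 4.05 RPKM in neuroectoderm and 2.36, 1.61 and 1.77 RPKM in mesendoderm. Its neuroectoderm values lay apart from the rest and exceeded hESC by 0.72 ± 0.17 (adjusted p = 0.00704), with the highest in replicate 1. The change of TTBK2 in mesendoderm, -0.24 ± 0.17 (adjusted p = 0.310), did not pass, and the difference between the day 5 groups was 0.96 ± 0.17 (adjusted p = 0.00134). TTBK2 shares 2135 exon bases with a non-coding gene on the opposite strand and 1254 with a processed pseudogene, and reads of these could not be separated without knowing how strand and repeats were treated. CEP89 read 5.66, 4.95 and 5.46 RPKM in hESC, 6.47, 8.65 and 8.87 RPKM in neuroectoderm and 6.41, 6.20 and 5.87 RPKM in mesendoderm. CEP89 rose by 0.49 ± 0.12 (adjusted p = 0.00978) in neuroectoderm, a call lost with small RNA genes left out (adjusted p = 0.0715), and changed by 0.17 ± 0.12 (adjusted p = 0.307) in mesendoderm. Its difference between the day 5 groups, 0.32 ± 0.12 (adjusted p = 0.0556), passed with equal medians (adjusted p = 0.0103), with quantile normalization (adjusted p = 0.0108), without neuroectoderm replicate 1 (adjusted p = 0.00309) and without the 3 libraries that stood apart (adjusted p = 0.00203).

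CCDC41, now named CEP83, is needed to assemble the appendages and was the docking gene that fell in mesendoderm. CCDC41 read 4.40, 5.34 and 4.25 RPKM in hESC, 6.03, 4.73 and 4.62 RPKM in neuroectoderm and 2.57, 3.03 and 2.81 RPKM in mesendoderm. The 3 mesendoderm values were the lowest of the 9, and the change was -0.57 ± 0.12 (adjusted p = 0.00588), against 0.11 ± 0.12 (adjusted p = 0.494) in neuroectoderm. SCLT1 read 3.17, 2.60 and 2.41 RPKM in hESC, 3.28, 3.28 and 2.93 RPKM in neuroectoderm and 2.78, 2.32 and 2.45 RPKM in mesendoderm. SCLT1, another appendage protein, changed by 0.16 ± 0.10 (adjusted p = 0.233) and -0.08 ± 0.10 (adjusted p = 0.590), with values that overlapped between each day 5 group and hESC.

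Of 5 genes of the mother centriole and its subdistal appendages, which anchor microtubules, CEP19 rose in neuroectoderm and CEP170 fell in mesendoderm. In the direct comparison, 4 of the 5 were higher in neuroectoderm (80.0%, background 24.0%). CEP19 read 0.47, 0.55 and 0.68 RPKM in hESC, 1.50, 2.57 and 2.31 RPKM in neuroectoderm and 0.46, 0.89 and 0.85 RPKM in mesendoderm. CEP19 recruits the GTPase RABL2 to the ciliary base. Its neuroectoderm values were all above the rest, with a change of 0.98 ± 0.16 (adjusted p = 9.10e-04), while mesendoderm overlapped hESC at 0.14 ± 0.16 (adjusted p = 0.534). CEP19 was the least abundant member, so its log2 changes are understated most. CEP170 read 7.23, 7.92 and 8.30 RPKM in hESC, 8.57, 8.52 and 8.59 RPKM in neuroectoderm and 6.84, 5.41 and 5.74 RPKM in mesendoderm. CEP170, a marker of subdistal appendages, changed by -0.34 ± 0.10 (adjusted p = 0.0305) in mesendoderm, a call lost in 7 of 20 alternatives (adjusted p = 0.0513 to 0.111), among them without hESC replicate 2 or 3, neuroectoderm replicate 3 and without mesendoderm replicate 2 or 3. In neuroectoderm CEP170 changed by 0.12 ± 0.10 (adjusted p = 0.383), and the day 5 groups differed by 0.46 ± 0.10 (adjusted p = 0.00539).

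CEP350 works with CEP19 at the mother centriole. CEP350 read 5.49, 7.16 and 6.05 RPKM in hESC, 9.60, 7.03 and 7.87 RPKM in neuroectoderm and 5.68, 4.41 and 4.91 RPKM in mesendoderm. The change of CEP350 in neuroectoderm was 0.34 ± 0.14 (adjusted p = 0.0792), which passed without hESC replicate 2 (adjusted p = 0.0498) and without the 3 libraries that stood apart (adjusted p = 0.0276). Between the day 5 groups CEP350 differed by 0.61 ± 0.14 (adjusted p = 0.00629). OFD1, which sets centriole length and sits at the distal end, ranged from 4.37 to 6.46 RPKM, and its difference between the day 5 groups of 0.29 ± 0.10 (adjusted p = 0.0451) was lost in 14 of 20 alternatives (adjusted p = 0.0501 to 0.186), among them without hESC replicate 1, 2 or 3, neuroectoderm replicate 1, 2 or 3 and without mesendoderm replicate 2 or 3. CEP128, a subdistal appendage protein at 2.41 to 3.33 RPKM, passed no test.

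Centriolar satellites are granules that carry proteins to the centrosome and cilium, with PCM1 as their scaffold. PCM1 was the most abundant member and moved in opposite directions in the day 5 groups. PCM1 read 16.4, 21.4 and 18.0 RPKM in hESC, 31.1, 23.9 and 25.9 RPKM in neuroectoderm and 14.2, 12.7 and 11.8 RPKM in mesendoderm. The 3 groups did not overlap. PCM1 rose by 0.51 ± 0.14 (adjusted p = 0.0171) in neuroectoderm and changed by -0.49 ± 0.14 (adjusted p = 0.0247) in mesendoderm, and the day 5 groups differed by 1.01 ± 0.14 (adjusted p = 3.89e-04). The rise was lost with small RNA genes left out (adjusted p = 0.163), without hESC replicate 1 (adjusted p = 0.0666) and without hESC replicate 3 (adjusted p = 0.0588), and the fall in 6 of 20 alternatives (adjusted p = 0.0566 to 0.0985), among them without hESC replicate 2 or 3 and without mesendoderm replicate 2 or 3. The difference between the day 5 groups held in every alternative. CEP72 read 10.4, 10.0 and 10.7 RPKM in hESC, 10.1, 11.4 and 10.4 RPKM in neuroectoderm and 10.1, 9.42 and 8.36 RPKM in mesendoderm. CEP72, a partner of PCM1 at the satellites, changed by 0.03 ± 0.10 (adjusted p = 0.835) and -0.15 ± 0.10 (adjusted p = 0.280), and its difference between the day 5 groups passed only without the 3 libraries that stood apart (adjusted p = 0.0384).

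Genes of centriole duplication gave calls in both directions. Of 12, in neuroectoderm 2 rose (CEP192 and CEP120) and 0 fell, and in mesendoderm 1 rose (STIL) and 2 fell (CEP85 and CEP135). These shares of rises (16.7% and 8.33%) and falls (0% and 16.7%) lay below the background of each comparison, the falls in mesendoderm near it (18.1%), and with 12 members they are a description. STIL read 8.21, 10.2 and 9.01 RPKM in hESC, 12.8, 9.22 and 9.51 RPKM in neuroectoderm and 19.2, 18.4 and 17.2 RPKM in mesendoderm. STIL is the protein that PLK4 phosphorylates to build the cartwheel. All mesendoderm values lay above the rest, a change of 0.93 ± 0.14 (adjusted p = 8.90e-04), and neuroectoderm overlapped hESC at 0.17 ± 0.14 (adjusted p = 0.350). Its promoter above holds the CCAAT boxes and the E2F letters. CEP57 read 17.1, 16.8 and 15.8 RPKM in hESC, 18.0, 18.1 and 19.2 RPKM in neuroectoderm and 15.5, 15.8 and 16.2 RPKM in mesendoderm. CEP57, a pericentriolar scaffold, varied little, by 0.15 ± 0.09 (adjusted p = 0.214) in neuroectoderm and -0.06 ± 0.09 (adjusted p = 0.641) in mesendoderm. The difference of CEP57 between the day 5 groups, 0.21 ± 0.09 (adjusted p = 0.0831), passed with equal medians (adjusted p = 0.0471) and with quantile normalization (adjusted p = 0.0382). CEP85 read 17.6, 18.6 and 18.1 RPKM in hESC, 18.3, 18.9 and 17.2 RPKM in neuroectoderm and 13.3, 13.0 and 12.2 RPKM in mesendoderm. CEP85, which binds STIL and holds NEK2 in check, had its 3 lowest values in mesendoderm and changed there by -0.46 ± 0.09 (adjusted p = 0.00404), against 0.00 ± 0.09 (adjusted p = 0.977) in neuroectoderm.

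CEP192, which brings PLK4 to the centriole, read 8.78 to 10.4 RPKM in hESC and 13.0 to 17.2 RPKM in neuroectoderm. It rose by 0.53 ± 0.13 (adjusted p = 0.0115), a call lost with small RNA genes left out (adjusted p = 0.122). CEP120, which acts in centriole elongation, rose by 0.44 ± 0.14 (adjusted p = 0.0279), lost in 8 of 20 alternatives (adjusted p = 0.0546 to 0.222), among them without hESC replicate 1 or 3 and without neuroectoderm replicate 1 or 3. CEP135, of the cartwheel, changed by -0.52 ± 0.16 (adjusted p = 0.0334) in mesendoderm, lost in 7 of 20 alternatives (adjusted p = 0.0503 to 0.104), among them without hESC replicate 1, 2 or 3 and without mesendoderm replicate 1, 2 or 3. Between the day 5 groups CEP135 differed by 0.53 ± 0.16 (adjusted p = 0.0225), lost without mesendoderm replicate 2 (adjusted p = 0.0665) and without mesendoderm replicate 3 (adjusted p = 0.0727). PLK4 read 9.19, 11.3 and 9.51 RPKM in hESC, 8.17, 7.32 and 8.47 RPKM in neuroectoderm and 10.6, 9.36 and 10.3 RPKM in mesendoderm. Its lowest 3 values were in neuroectoderm, where the change of PLK4 was -0.29 ± 0.11 (adjusted p = 0.0579), and the difference from mesendoderm, -0.31 ± 0.11 (adjusted p = 0.0436), was lost in 13 of 20 alternatives (adjusted p = 0.0514 to 0.222), among them without hESC replicate 1 or 3, neuroectoderm replicate 2 or 3 and without mesendoderm replicate 1, 2 or 3. CEP44, of centriole maturation, changed by 0.43 ± 0.16 (adjusted p = 0.0596) in neuroectoderm and passed without hESC replicate 2 (adjusted p = 0.0261) and without the 3 libraries that stood apart (adjusted p = 0.0113). SASS6, CENPJ, CEP152 and CEP63 passed no test in any setting, with changes between -0.27 (SASS6 in mesendoderm) and 0.20 (CENPJ in mesendoderm) against hESC.

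The cap keeps a centriole from growing a cilium. Of 5 genes grouped here as the cap and its regulators, 3 rose in neuroectoderm (background 21.9%): CEP97, KIF24 and CEP78. KIF24 also rose in mesendoderm, and this 1 rise of 5 was near the background of 17.0%. In each comparison with hESC 0 of the 5 fell (background 22.3% in neuroectoderm and 18.1% in mesendoderm). CEP97 read 3.41, 3.88 and 3.42 RPKM in hESC, 9.76, 6.05 and 7.09 RPKM in neuroectoderm and 3.40, 2.38 and 2.74 RPKM in mesendoderm. CEP97, the partner of CCP110 in the cap, rose by 0.90 ± 0.16 (adjusted p = 0.00201) in neuroectoderm, where every value exceeded every value elsewhere, highest in replicate 1. The change of CEP97 in mesendoderm was -0.26 ± 0.16 (adjusted p = 0.257), past the test only without the 3 libraries that stood apart (adjusted p = 0.0454), and the day 5 groups differed by 1.15 ± 0.16 (adjusted p = 3.89e-04). CCP110 read 3.31, 4.28 and 3.27 RPKM in hESC, 6.73, 3.80 and 4.12 RPKM in neuroectoderm and 3.29, 3.04 and 3.30 RPKM in mesendoderm. CCP110 itself was high in neuroectoderm replicate 1 and overlapped hESC in the others, with a change of 0.32 ± 0.18 (adjusted p = 0.173). The difference of CCP110 between the day 5 groups was 0.45 ± 0.18 (adjusted p = 0.0628) and passed without neuroectoderm replicate 2 (adjusted p = 0.0308) and without the 3 libraries that stood apart (adjusted p = 0.0458).

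KIF24, a kinesin that trims microtubules at the mother centriole and keeps CCP110 there, read 2.99, 2.94 and 3.19 RPKM in hESC, 5.85, 6.74 and 6.54 RPKM in neuroectoderm and 4.61, 4.05 and 3.99 RPKM in mesendoderm. It was the only member higher in all 3 comparisons, and its 3 groups did not overlap. Its changes were 0.87 ± 0.09 (adjusted p = 7.25e-05) in neuroectoderm and 0.37 ± 0.09 (adjusted p = 0.0125) in mesendoderm, and the day 5 groups differed by 0.50 ± 0.09 (adjusted p = 0.00170). The call in mesendoderm was lost with small RNA genes left out (adjusted p = 0.236). CEP78 read 12.9, 14.6 and 14.3 RPKM in hESC, 21.5, 18.9 and 19.2 RPKM in neuroectoderm and 12.1, 11.7 and 10.4 RPKM in mesendoderm. CEP78, which acts on the level of CCP110, rose by 0.48 ± 0.10 (adjusted p = 0.00524) in neuroectoderm, a call lost with small RNA genes left out (adjusted p = 0.133). In mesendoderm CEP78 changed by -0.27 ± 0.10 (adjusted p = 0.0759), which passed without neuroectoderm replicate 1 (adjusted p = 0.0355) and without the 3 libraries that stood apart (adjusted p = 0.0416). CEP76, a brake on extra centrioles at 3.80 to 5.13 RPKM, passed no test. KIF24 shares 143 exon bases with UBAP1 on the opposite strand and CEP76 shares 289 with PSMG2, both of which were more abundant.

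The linker that ties a pair of centrioles together gave 2 rises in neuroectoderm, of CEP68 and NEK2, and 2 falls in mesendoderm, of CEP68 and ALMS1. CEP68, a fibre protein of the linker, moved in opposite directions. CEP68 read 8.83, 8.40 and 9.25 RPKM in hESC, 13.6, 12.1 and 12.7 RPKM in neuroectoderm and 3.79, 3.59 and 3.92 RPKM in mesendoderm. The 3 groups were apart, with neuroectoderm above hESC by 0.49 ± 0.09 (adjusted p = 0.00192) and mesendoderm changed by -1.04 ± 0.09 (adjusted p = 2.75e-05). The day 5 groups differed by 1.53 ± 0.09 (adjusted p = 1.28e-06). Only the rise in neuroectoderm was lost, with small RNA genes left out (adjusted p = 0.0770). CEP68 shares 150 exon bases with RAB1A on the opposite strand, which averaged 21.0, 18.1 and 30.7 RPKM in hESC, neuroectoderm and mesendoderm, the reverse order, and its part in the CEP68 values was not tested. NEK2 read 6.54, 8.40 and 7.20 RPKM in hESC, 11.3, 10.9 and 11.2 RPKM in neuroectoderm and 9.19, 8.90 and 9.44 RPKM in mesendoderm. NEK2, the kinase that dissolves the linker at mitosis and acts on KIF24 in cilium disassembly, rose by 0.54 ± 0.10 (adjusted p = 0.00227) in neuroectoderm, lost with small RNA genes left out (adjusted p = 0.0729). In mesendoderm NEK2 changed by 0.29 ± 0.10 (adjusted p = 0.0550), which passed with transcripts summed (adjusted p = 0.0476), without hESC replicate 2 (adjusted p = 0.0217), without neuroectoderm replicate 1 (adjusted p = 0.0377) and without the 3 libraries that stood apart (adjusted p = 0.0105).

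ALMS1, the gene of Alström syndrome, a ciliopathy, keeps the proximal ends of centrioles together. ALMS1 read 8.24, 10.8 and 9.30 RPKM in hESC, 10.8, 8.26 and 9.02 RPKM in neuroectoderm and 6.36, 5.91 and 5.31 RPKM in mesendoderm. Its 3 lowest values were in mesendoderm, a change of -0.60 ± 0.13 (adjusted p = 0.00712), against -0.01 ± 0.13 (adjusted p = 0.965) in neuroectoderm. CEP250, the anchor of the linker, ranged from 5.39 to 8.88 RPKM. It passed only between the day 5 groups, by 0.37 ± 0.11 (adjusted p = 0.0204), and that call was lost in 5 of 20 alternatives (adjusted p = 0.0512 to 0.0864), among them without neuroectoderm replicate 2 and without mesendoderm replicate 2 or 3.

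Among 3 genes of the axoneme, CEP41 rose in neuroectoderm (33.3%, background 21.9%) and CSPP1 fell in mesendoderm (33.3%, background 18.1%). CEP41 read 1.86, 1.87 and 1.88 RPKM in hESC, 3.16, 3.84 and 3.94 RPKM in neuroectoderm and 2.50, 1.89 and 2.23 RPKM in mesendoderm. CEP41, needed for the glutamylation of ciliary tubulin, rose by 0.69 ± 0.10 (adjusted p = 6.72e-04) and differed between the day 5 groups by 0.54 ± 0.10 (adjusted p = 0.00251). In mesendoderm it changed by 0.16 ± 0.10 (adjusted p = 0.282). CSPP1 read 2.95, 3.40 and 3.36 RPKM in hESC, 2.97, 2.49 and 3.08 RPKM in neuroectoderm and 1.74, 2.03 and 1.78 RPKM in mesendoderm. CSPP1, a microtubule protein of the axoneme, changed by -0.57 ± 0.10 (adjusted p = 0.00178) in mesendoderm, where its 3 values were the lowest, and by -0.14 ± 0.10 (adjusted p = 0.272) in neuroectoderm.

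The largest changes of all members against hESC were those of NEDD9 and PIFO, both disassembly genes. The disassembly genes differed by lineage: NEDD9 rose in both day 5 groups, NDE1 in neuroectoderm and PIFO in mesendoderm. NEDD9 read 2.69, 2.29 and 2.40 RPKM in hESC, 12.6, 16.2 and 16.2 RPKM in neuroectoderm and 13.8, 11.3 and 11.5 RPKM in mesendoderm. NEDD9, also called HEF1, is the scaffold that activates Aurora A at the ciliary base. All 6 day 5 values exceeded hESC, with changes of 2.20 ± 0.13 (adjusted p = 2.04e-06) in neuroectoderm and 1.93 ± 0.13 (adjusted p = 6.85e-06) in mesendoderm. The day 5 groups overlapped and differed by 0.27 ± 0.13 (adjusted p = 0.109), which passed with equal medians (adjusted p = 0.0322), with quantile normalization (adjusted p = 0.0195), without neuroectoderm replicate 1 (adjusted p = 0.0168) and without the 3 libraries that stood apart (adjusted p = 0.00225). Of its 5 deposited transcripts, the least abundant averaged 1.25, 7.42 and 6.68 RPKM in hESC, neuroectoderm and mesendoderm. NDE1 read 5.11, 3.46 and 4.90 RPKM in hESC, 7.56, 9.44 and 9.81 RPKM in neuroectoderm and 5.45, 5.43 and 5.84 RPKM in mesendoderm. NDE1, which limits cilium length, rose by 0.86 ± 0.14 (adjusted p = 0.00116) in neuroectoderm, where its 3 values were the highest. In mesendoderm NDE1 changed by 0.27 ± 0.14 (adjusted p = 0.173), and the day 5 groups differed by 0.59 ± 0.14 (adjusted p = 0.00811). The exons of NDE1 hold the microRNA gene MIR484, at 30.0, 39.6 and 4.46 RPKM on average in hESC, neuroectoderm and mesendoderm, and the part of its reads in the NDE1 values was not tested.

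PIFO, or pitchfork, also activates Aurora A at the basal body. PIFO read 1.02, 0.93 and 1.06 RPKM in hESC, 0.76, 1.33 and 1.72 RPKM in neuroectoderm and 13.1, 12.8 and 13.6 RPKM in mesendoderm. The mesendoderm values were close together and far above the rest, a change of 2.82 ± 0.14 (adjusted p = 1.49e-06), and neuroectoderm minus mesendoderm was -2.66 ± 0.14 (adjusted p = 9.31e-07). In neuroectoderm PIFO overlapped hESC at 0.16 ± 0.14 (adjusted p = 0.415). That change passed without neuroectoderm replicate 1 (adjusted p = 0.0202) and without the 3 libraries that stood apart (adjusted p = 0.0423). The mesendoderm libraries with high PIFO held the amnion, trophoblast and lateral mesoderm markers at 130 to 224 RPKM and the multiciliated markers at 0.48 to 0.94 RPKM. The part of the former in the rise of PIFO was not tested.

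**Figure D4:**
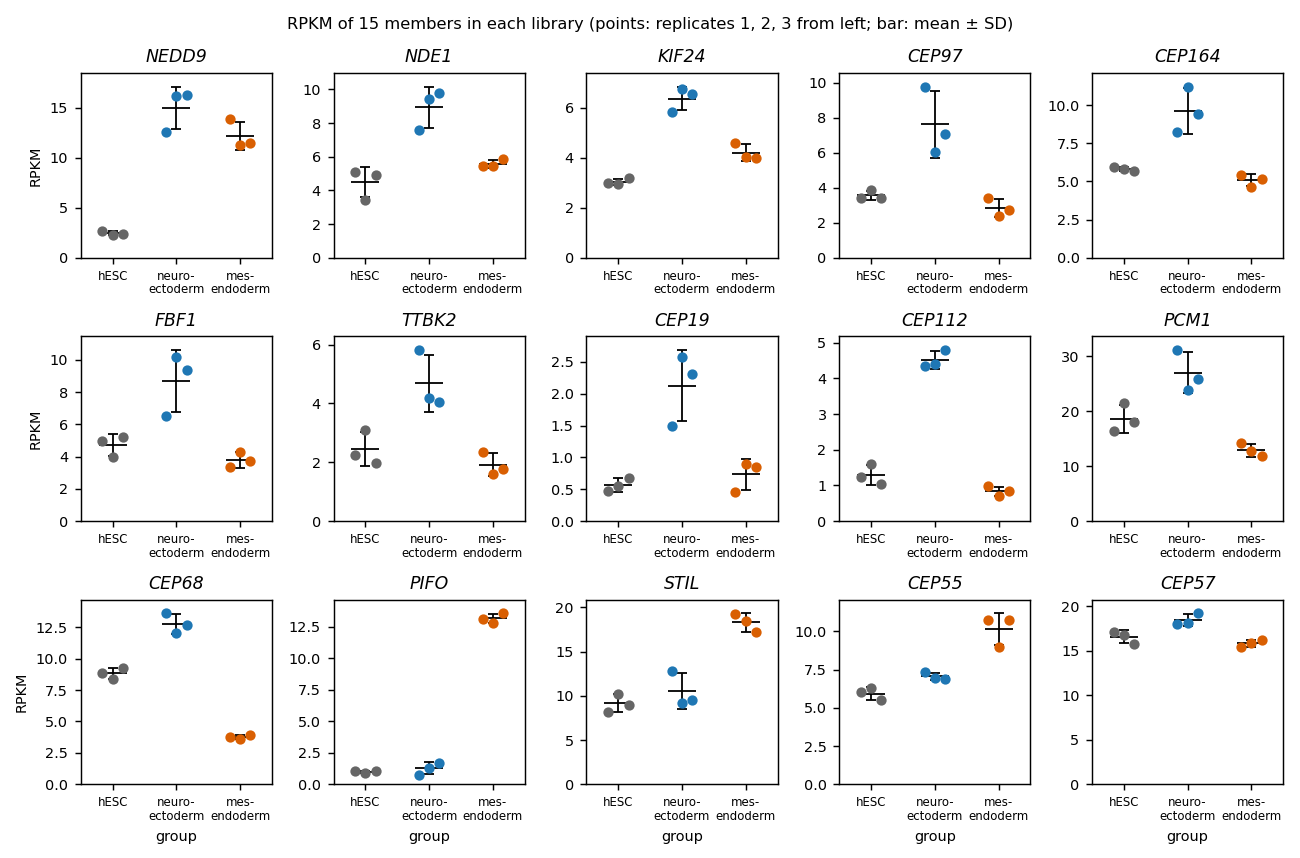
RPKM of 15 members in each library, with points for replicates 1, 2 and 3 from the left and bars for the mean ± SD of 3 libraries. NEDD9 lies above hESC in both day 5 groups, PIFO, STIL and CEP55 are high in mesendoderm, and CEP97, CEP112, CEP164, CEP19, FBF1, KIF24, NDE1 and TTBK2 have their highest values in neuroectoderm.

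CEP55, which recruits the machinery that cuts the bridge between daughter cells, rose in mesendoderm. CEP55 read 6.01, 6.30 and 5.51 RPKM in hESC, 7.33, 6.95 and 6.92 RPKM in neuroectoderm and 10.7, 8.99 and 10.8 RPKM in mesendoderm. The groups were apart, in the order hESC, neuroectoderm, mesendoderm, with changes of 0.68 ± 0.10 (adjusted p = 7.30e-04) in mesendoderm and 0.22 ± 0.10 (adjusted p = 0.105) in neuroectoderm. The difference between the day 5 groups was -0.47 ± 0.10 (adjusted p = 0.00417). Its promoter above carries the TTCAAA letters in capitals.

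Of the 3 remaining members, CEP112 and CEP70 rose in neuroectoderm (66.7%, background 21.9%) and CEP70 fell in mesendoderm (33.3%, background 18.1%). CEP112 read 1.24, 1.60 and 1.03 RPKM in hESC, 4.34, 4.40 and 4.79 RPKM in neuroectoderm and 0.97, 0.71 and 0.83 RPKM in mesendoderm. CEP112 had neuroectoderm values apart from the rest, with a change of 1.27 ± 0.11 (adjusted p = 2.34e-05), and the day 5 groups differed by 1.59 ± 0.11 (adjusted p = 4.22e-06). The least abundant of its 3 transcripts averaged 0.64, 2.31 and 0.37 RPKM in hESC, neuroectoderm and mesendoderm. The mesendoderm values of CEP112 were all below hESC, at -0.31 ± 0.11 (adjusted p = 0.0549), which passed in 5 of 20 alternatives (adjusted p = 0.0319 to 0.0480), among them without hESC replicate 3 and without neuroectoderm replicate 1. CEP70 read 6.80, 7.60 and 6.53 RPKM in hESC, 9.56, 8.41 and 9.59 RPKM in neuroectoderm and 5.66, 5.49 and 5.59 RPKM in mesendoderm. CEP70, which binds γ-tubulin, rose by 0.35 ± 0.09 (adjusted p = 0.0134) in neuroectoderm, lost with small RNA genes left out (adjusted p = 0.285), without hESC replicate 3 (adjusted p = 0.0615) and without neuroectoderm replicate 3 (adjusted p = 0.0535). Its change in mesendoderm, -0.28 ± 0.09 (adjusted p = 0.0467), was lost in 13 of 20 alternatives (adjusted p = 0.0523 to 0.136), among them without hESC replicate 1, 2 or 3, neuroectoderm replicate 3 and without mesendoderm replicate 1, 2 or 3. The difference of CEP70 between the day 5 groups, 0.63 ± 0.09 (adjusted p = 5.18e-04), held in every alternative. CEP95 read 9.93, 10.3 and 9.34 RPKM in hESC, 9.97, 8.74 and 8.85 RPKM in neuroectoderm and 10.2, 9.64 and 9.83 RPKM in mesendoderm. CEP95 overlapped between all groups and passed no test.

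Related genes of the centrosome and cilium disassembly that are no members were described in the same way. The list holds 51 genes, 50 of them found and tested. In neuroectoderm 18 rose (36.0%, background 21.9%) and 3 fell (6.0%, background 22.3%), with a median change of 0.21. In mesendoderm 5 rose (10.0%, background 17.0%) and 8 fell (16.0%, near the background of 18.1%), with a median of -0.07. Between the day 5 groups 18 were higher in neuroectoderm (36.0%, background 24.0%) and 6 lower (12.0%, background 24.1%), with a median of 0.19. Without the 3 libraries that stood apart, these counts were 23 and 8, 6 and 15, and 24 and 6. The largest rises in neuroectoderm were those of ODF2, an appendage protein of the mother centriole (0.97 ± 0.16, adjusted p = 0.00137), NIN, ninein of the subdistal appendages (0.92 ± 0.10, adjusted p = 1.02e-04), KIAA0586, the ciliogenesis protein TALPID3 (0.81 ± 0.12, adjusted p = 6.46e-04), and HDAC6. The 3 falls were those of the dynein regulator NUDC (-0.97 ± 0.15, adjusted p = 6.80e-04), the ninein-like NINL (-0.93 ± 0.11, adjusted p = 1.43e-04) and FOPNL (-0.42 ± 0.15, adjusted p = 0.0408). In mesendoderm the largest rises were ODF2 (0.98 ± 0.16, adjusted p = 0.00173), TCHP (0.72), NDEL1 (0.50) and POC1B (0.48). The largest falls there were CROCC, rootletin of the ciliary rootlet (-1.33 ± 0.16, adjusted p = 2.45e-04), SSX2IP (-0.63), FGFR1OP (-0.60) and NUDC (-0.47).

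Between the day 5 groups, CROCC (1.27), TUBE1 (0.97), KIAA0586 (0.94) and CDK5RAP2 (0.89) were highest in neuroectoderm relative to mesendoderm, and TUBG1 (-0.56), NUDC (-0.50), AURKA (-0.48) and NINL (-0.46) lowest. AURKA read 23.1, 19.8 and 23.6 RPKM in hESC, 16.0, 19.0 and 20.6 RPKM in neuroectoderm and 26.8, 27.1 and 24.7 RPKM in mesendoderm. AURKA is the gene of Aurora A, the kinase of cilium disassembly. It passed the test in neither day 5 group against hESC (-0.25 ± 0.12, adjusted p = 0.136 and 0.23 ± 0.12, adjusted p = 0.186) but was lower in neuroectoderm than in mesendoderm (-0.48 ± 0.12, adjusted p = 0.0113). HDAC6 read 6.06, 5.29 and 7.31 RPKM in hESC, 8.09, 14.1 and 12.4 RPKM in neuroectoderm and 6.86, 4.73 and 5.76 RPKM in mesendoderm. HDAC6, the tubulin deacetylase that Aurora A activates in that step, rose by 0.77 ± 0.20 (adjusted p = 0.0140) in neuroectoderm and changed by -0.09 ± 0.20 (adjusted p = 0.766) in mesendoderm, with the lowest neuroectoderm value in replicate 1.

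Many centriole genes are transcribed in step with the cell cycle, so 25 proliferation genes were set beside them. In neuroectoderm 2 rose (8.0%, background 21.9%) and 6 fell (24.0%, near the background of 22.3%), with a median change of -0.18. In mesendoderm 1 rose (4.0%, background 17.0%) and 6 fell (24.0%, background 18.1%), with a median of -0.10. Between the day 5 groups 1 was higher in neuroectoderm (4.0%, background 24.0%) and 3 lower (12.0%, background 24.1%), with a median of -0.13. Without the 3 libraries that stood apart, these counts were 6 and 7, 3 and 8, and 5 and 5. BUB1, of the spindle checkpoint, changed by -0.99 ± 0.13 (adjusted p = 2.54e-04) and -0.92 ± 0.13 (adjusted p = 5.44e-04) in the day 5 groups. CDC6, of replication licensing, changed by -0.78 and -0.33, and CCNE1, cyclin E1, by -0.68 and -0.41, all past the test. The rises were MKI67 in neuroectoderm (0.32 ± 0.10, adjusted p = 0.0301) and PRC1, a midzone protein of dividing cells, in both (0.34 and 0.52). The part of proliferation in the members' changes was not tested.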

How the data were processed

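Groups follow the cell types that the titles of the 9 libraries name. Values are the RPKM that the authors computed and deposited for 38759 RefSeq transcripts. The submitters' processing notes list hg19, TopHat, TopHat2 2.0.13 and Bowtie2. Counter, strand use and repeat handling are not given here, so 14 members whose exons overlap an opposite-strand gene, and 5 with a same-strand overlap in GENCODE on GRCh38, are uncertain to that extent. For each symbol the transcript of highest mean was used. For 20 members with several transcripts, the others share reads with it.

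The values log2(RPKM + 1) of all 9 libraries were fitted in 1 model with limma 3.58.1 (R 4.3.3, mean-variance trend), tested on simulated data first. Depth was read from whole-read steps in the values of short hairpin genes (at least 97.2% whole within 0.1 read). Members and lists were chosen with earlier results of these data known. Values in every library are given for members with a change of at least 0.8 past the test, the most abundant pair per role and members with opposite calls. CCDC41, SCLT1, CCP110, CEP41, PLK4 and ALMS1 were added after their values were seen. Whether replicate numbers pair the libraries could not be decided, and the main fit held no replicate block. Values of 1 member are not reported here, and the counts include it.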

Additional observations from a re-analysis of the deposited data

Results flagged for a closer look

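In 3 members the changes against hESC passed the test with opposite signs in the day 5 groups, up in neuroectoderm and down in mesendoderm. The difference between the 2 changes, tested in the limma fit, was 1.53 for CEP68, 1.01 for PCM1 and 0.63 for CEP70 on the log2 scale. Both changes share the same 3 hESC libraries. The differences of CEP68, PCM1 and CEP70 held in all 20 alternatives, but of the changes against hESC only the fall of CEP68 did.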

How the results depend on the processing

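Each count was recomputed under 20 alternatives, 9 of them leaving out 1 library, and no member's change reversed past the test. The share of all genes called in each alternative is not given here, so the counts below have no background beside them. With small RNA genes left out, 10 members rose in neuroectoderm in place of 18. The falls in mesendoderm numbered 5 without hESC replicate 2, without mesendoderm replicate 2 or without mesendoderm replicate 3, in place of 9, and the cause was not tested. Leaving out 1 library gave 15 to 20 rises and 0 falls in neuroectoderm, 5 to 6 rises and 5 to 11 falls in mesendoderm, and 20 to 24 members higher and 3 to 4 lower in neuroectoderm than in mesendoderm. All alternatives together gave 10 to 21, 0, 4 to 6, 5 to 11, 20 to 29 and 3 to 4. Same-numbered libraries had correlated deviations over 0.1 in 4 of 9 pairs (range -0.74 to 0.40), and 6 of 18 matches were best with the own number. The same deviations followed GC content, and hESC replicate 2 matched neuroectoderm replicate 1 at 0.79. The matches therefore cannot show whether equal numbers mark a shared culture or day. With a replicate block the 6 counts were 17, 0, 5, 6, 22 and 3. Of the members called, 10 of 18 were called in every alternative that tested them in neuroectoderm, 9 of 14 in mesendoderm and 23 of 27 between the day 5 groups (CEP19 in 19 alternatives, the others in 20). The related genes ran over all alternatives from 10 to 23 rises and 2 to 8 falls in neuroectoderm (18 and 3 reported), 2 to 6 and 3 to 15 in mesendoderm (5 and 8), and 17 to 24 and 2 to 6 between the day 5 groups (18 and 6). The proliferation genes ran from 0 to 6 and 3 to 7 (2 and 6), 0 to 3 and 2 to 8 (1 and 6), and 1 to 5 and 1 to 5 (1 and 3). Among limits, RPKM keeps no raw counts, depth was read only from low values, and 3 libraries a group give wide errors for low genes such as CEP19.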
